A study of Caenorhabditis elegans with 24 samples.

Results

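The microRNA (miRNA) gene mir-80 of Caenorhabditis elegans is described here through both arms of its hairpin (precursor cel-mir-80), miR-80-3p and miR-80-5p. They are the 2 rows with the precursor mir-80 among the 450 rows of the deposited count table, and both passed the filter on low counts in every fit. The gene was chosen by name with earlier results of these libraries known, among them the higher level of miR-80-3p in wild-type IP than in wild-type total RNA. That comparison is therefore treated as the one that chose it and given as values with no test.

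Small RNA came from whole animals carrying alg-1(ma447, F180del), alg-1(ma443, G199S), alg-1(zen25, V254I), alg-1(zen18, H751L), alg-1(tm492, 0), called null, or from the N2 strain, called WT. The first 4 are alleles modelled on AGO1 changes found in people with neurodevelopmental disorders (NDD). Every genotype gave 2 libraries of total small RNA from lysate and 2 of small RNA recovered by ALG-1 immunoprecipitation (IP), all from animals fed for 45 h at 20 °C. Whether libraries 1 and 2 of a group are separate cultures is not in the labels, and the p-values cover just the differences among the sequenced libraries, possibly technical ones. Libraries held 3940626 to 13835895 miRNA reads, and 153 and 232 miRNAs were detected in null IP, fewer than in any other library (257 to 351).

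miR-80-3p belongs to the bantam (miR-58) family, named after the Drosophila miRNA bantam, whose members share their seed, the 5′ bases that pair with target messages. In C. elegans the family members mir-58, mir-80, mir-81 and mir-82 act redundantly, and loss of mir-80 has been tied to a state that resembles dietary restriction. Of the 2 strands cut from a hairpin, an Argonaute protein such as ALG-1 keeps the guide and discards the passenger. ALG-1 and its close relative ALG-2, which the null still has, are the main Argonautes for miRNAs in this animal. miR-80-3p is the guide here, with 11731575 reads over all libraries.

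In the WBcel235 annotation, mir-80 (WBGene00003308) lies on the minus strand of chromosome III at 8865270 to 8865367, a hairpin gene of 98 bases outside any protein-coding gene. An ncRNA gene, K01F9.6, covers nearly the same bases on the plus strand (8865268 to 8865366). The sources used here do not say whether reads were assigned by strand, so reads from K01F9.6 could not be told apart. Within 10 kb lie mir-238, 1960 bases away, and mir-90, 8619 bases away, both also on the minus strand. The build behind the deposited counts is not given in the sources used here, and only gene positions were taken from this annotation.

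Levels are given as RPM, reads per 1000000 miRNA reads of the library, and reads were not scaled by length. In IP, miR-80-3p ranked among the 7 most abundant miRNAs of every library. It had 57436 and 78149 RPM in the F180del IP, 76045 and 53079 RPM in the G199S IP, and 60564 and 63816 RPM in the V254I IP. The H751L IP held 74170 and 104757 RPM. The null IP held 109635 and 173714 RPM, and the WT IP 63736 and 93965 RPM. Thus both null IP libraries lay above every other IP library, and library 2 of null had miR-80-3p as its most abundant miRNA. The 4 NDD alleles and WT overlapped with their neighbours throughout the order of means, which ran from null (141674 RPM) through H751L (89464), WT (78851), F180del (67793) and G199S (64562) to V254I (62190).

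In total RNA the same guide was far lower and far less even. It had 9161 and 36112 RPM in F180del, 33152 and 24706 RPM in G199S, 31479 and 9164 RPM in V254I, and 15808 and 2121 RPM in H751L. The null had 29763 and 2767 RPM, and WT 2599 and 9697 RPM. G199S was the only genotype in which both total libraries lay above both WT libraries, and every pair of neighbours in the order of means overlapped. Counting error was small beside these gaps: WT total library 1 had 12805 reads, with an exact 95% interval of 2554 to 2644 RPM, which covers counting error only.

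**Figure D1:**
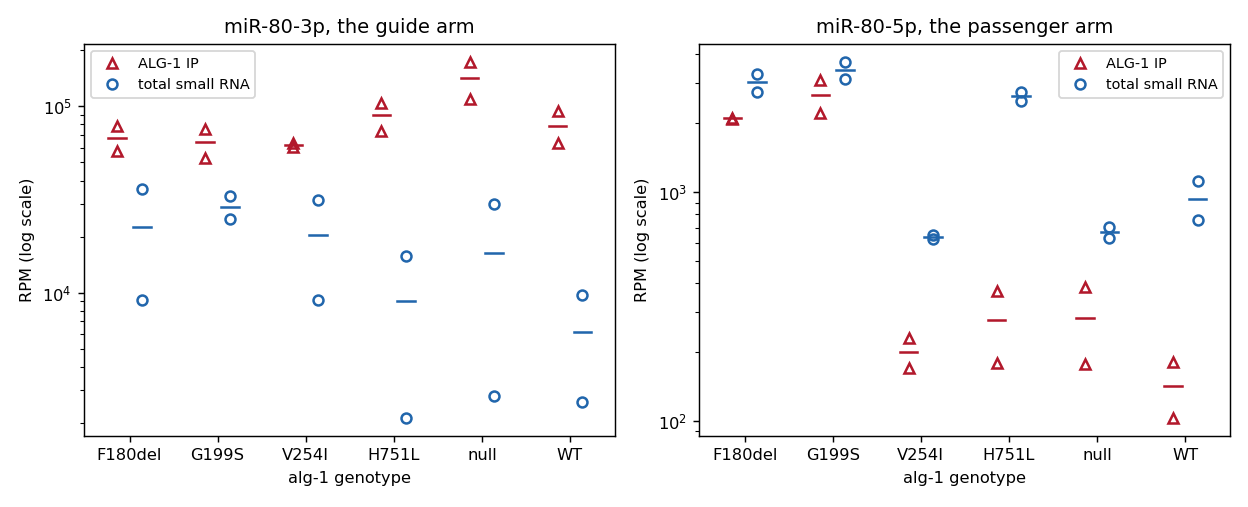
Levels of miR-80-3p and miR-80-5p in RPM (log scale) in every library, by alg-1 genotype; triangles are ALG-1 IP libraries, circles total libraries, and bars the means of 2 libraries. The guide is highest in the null IP (109635 and 173714 RPM) and spreads widely between total libraries, while the passenger is high in F180del and G199S in both fractions and in H751L in total RNA alone.

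The gap between total libraries of the same genotype set miR-80-3p apart from its own passenger. Over the 6 genotypes, the SD between libraries of log2(RPM + 1) was 1.61 in total RNA, the 4th largest among 175 miRNAs with a mean of at least 10 RPM, whose median SD was 0.657. In IP it was 0.351, against a median of 0.470. miR-80-5p, cut from the same hairpin, had an SD of 0.206 in total RNA, which put it 173rd of 175, and 0.533 in IP.

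The summed level of larval timing markers moved with miR-80-3p between total libraries, though not every member did. The summed level of lin-4-5p, let-7-5p, miR-48-5p, miR-84-5p and miR-241-5p, which time larval cell fates, was higher in the miR-80-3p-rich library in 6 of 6 genotypes, by 0.09 (G199S) to 2.04 (null) on the log2 scale. Of the 5 members, 4 were higher there in G199S, V254I, H751L and null, 3 in WT and 2 in F180del. lin-4-5p went the other way in every genotype but G199S, with 3787 against 6714 RPM in H751L and 4255 against 9844 RPM in WT. miR-48-5p was the most abundant member and made up most of the sum in every total library. The summed levels ran from 30110 RPM in H751L library 2 to 152896 RPM in null library 1, and no member was at 0 in any library. Between those null libraries miR-80-3p differed by 3.43 and between the H751L libraries by 2.90 on the log2 scale. In IP the timing sum was higher in the miR-80-3p-rich library in 1 of 6 genotypes. The sum of 8 miR-35 family members, which mark embryos and the germline, was higher in the miR-80-3p-rich total library in 1 of 6 genotypes, and so was the sum of 6 miRNAs that mark tissues or the Argonaute RDE-1. Of the 8, 1 (WT) to 4 (F180del and G199S) were higher there. Of the 6, 3 were higher there in F180del, G199S and H751L, 4 in V254I and null, and 5 in WT. Their most abundant member, miR-1-3p, was lower there in every genotype but WT. In contrast, miR-57-5p was higher in every genotype but WT, and miR-228-5p in every genotype but G199S. The part of developmental stage in the spread of miR-80-3p was not tested.

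No genotype passed against WT in its total miR-80-3p level by the edgeR quasi-likelihood test on 303 miRNAs, which called 15.5% of them in F180del, 11.9% in G199S, 0.00% in V254I, 1.98% in H751L and 11.9% in null. The log2 changes were 1.97 ± 1.11 in G199S (SE, n = 2 per group; edgeR adjusted p = 0.234), 1.63 ± 1.10 in V254I (adjusted p = 0.899), 1.24 ± 1.09 in null (adjusted p = 0.507), 1.21 ± 1.08 in F180del (adjusted p = 0.493) and 0.77 ± 1.08 in H751L (adjusted p = 0.965). All of them were above 0, but they share the 2 WT total libraries, which are among those that led to the choice of mir-80. Their common sign is thus not independent of that choice. The change of null was -1.36 without null library 1, and that of H751L was -1.83 without H751L library 1 and -0.27 without WT library 1. Leaving out 1 library gave 0.48 (without F180del library 2) to 3.0 in F180del, 0.89 (without WT library 1) to 3.13 in G199S and 0.75 (without V254I library 1) to 3.05 in V254I, each highest without WT library 2. G199S passed when no filter on low counts was used (2.01, edgeR adjusted p = 0.0253). The test among the 6 genotypes gave an edgeR adjusted p of 0.671.

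miR-80-5p, the passenger, behaved differently. In total RNA it had 3301 and 2735 RPM in F180del, 3119 and 3715 RPM in G199S, and 2745 and 2507 RPM in H751L. It had 653 and 622 RPM in V254I, 705 and 629 RPM in null, and 1118 and 753 RPM in WT. F180del, G199S and H751L all lay above both WT libraries, by 3.23, 3.65 and 2.81 times on the ratio of means, while V254I and null lay below both. miR-80-5p differed among the 6 genotypes (edgeR adjusted p = 0.00827), as did 24.8% of all miRNAs tested. In G199S total RNA the miR-35 family sum was 121373 and 95430 RPM, against 19719 and 15532 RPM in WT, and 6 of its 8 members rose, where 10.9% of all miRNAs did. In F180del (19172 and 13619 RPM) and H751L (10565 and 16168 RPM), where the passenger was also high, the sum did not lie above both WT libraries. In WT, miR-42-3p made up most of that sum (13683 and 12129 RPM), and it had 3938 and 3674 RPM in F180del. The median log2 change of the 8 members was 1.32 in F180del and -0.14 in H751L, against 0.13 and 0.23 over all miRNAs. The part of these miRNAs in the passenger level was not tested. Against WT alone no genotype passed for miR-80-5p: the log2 change was 1.69 ± 0.54 in G199S (adjusted p = 0.0549), 1.68 ± 0.54 in H751L (adjusted p = 0.134) and 1.23 ± 0.54 in F180del (adjusted p = 0.133). It was -0.54 ± 0.53 in V254I (adjusted p = 0.899) and -0.60 ± 0.53 in null (adjusted p = 0.516). With library totals in place of TMM factors, G199S and F180del passed (1.87 and 1.69, edgeR adjusted p = 0.0210 and 0.0273). G199S also passed with DESeq2 (1.38, DESeq2 adjusted p = 0.0346) and with G199S and WT alone in the fit (1.52, edgeR adjusted p = 0.0254). That scaling raises the median change of all miRNAs by 0.20 in G199S and 0.51 in F180del.

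In IP the passenger showed the largest differences of the hairpin. It had 2105 and 2094 RPM in the F180del IP and 2216 and 3103 RPM in the G199S IP. The other alleles stayed low, with 231 and 171 RPM in V254I and 371 and 179 RPM in H751L. The null IP had 385 and 178 RPM, and the WT IP 181 and 103 RPM. F180del and G199S did not overlap with any other genotype, whereas V254I, H751L, null and WT each overlapped with the next in order.

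miR-80-5p in IP rose in F180del by 3.24 ± 0.44 on the log2 scale against WT (edgeR adjusted p = 0.000281) and in G199S by 3.95 ± 0.45 (edgeR adjusted p = 8.43e-05). Of 269 miRNAs tested, 23.8% rose in F180del and 20.4% in G199S. In IP the miR-35 family sum lay above WT in both genotypes, at 8448 and 8629 RPM in F180del and 56723 and 62651 RPM in G199S, against 5395 and 4415 RPM in WT. Of its 8 members, 1 rose in F180del and 5 in G199S, and their part in the passenger level was not tested. Both calls held without any 1 library, with log2 changes of 3.01 to 3.65 in F180del and 3.69 to 4.34 in G199S. V254I (0.32 ± 0.40, adjusted p = 0.993) and H751L (1.18 ± 0.41, adjusted p = 0.173) did not pass by edgeR. In the null IP miR-80-5p passed at 1.2 ± 0.41 (edgeR adjusted p = 0.0382; 17.1% of miRNAs rose), although library 2 of null lay below library 1 of WT. That call was lost without WT library 1 (1.56, adjusted p = 0.0586), without WT library 2 (0.91, adjusted p = 0.209), with library totals (0.98, adjusted p = 0.111), with no filter (1.19, adjusted p = 0.0517) and with null and WT alone in the fit (1.41, adjusted p = 0.120). The median change of all miRNAs in the null IP was -0.77, and -1.05 with library totals.

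The 2 NDD alleles with a high passenger in IP also stood above the null IP, a precipitation from animals that lack ALG-1. miR-80-5p was higher than in the null IP by 2.04 ± 0.42 in F180del (edgeR adjusted p = 0.00235, where 37.2% of miRNAs were higher) and by 2.75 ± 0.43 in G199S (edgeR adjusted p = 0.000772, where 34.2% were). The median over all miRNAs was 1.22 in F180del and 1.4 in G199S, and library totals moved it by 0.94 and 0.55. The F180del call was lost with F180del and null alone in the fit (1.82, edgeR adjusted p = 0.0587). V254I (-0.88 ± 0.41, adjusted p = 0.0966) and H751L (-0.02 ± 0.40, adjusted p = 0.991) did not pass against null by edgeR, with 39.8% of miRNAs called in either direction in H751L. Without null library 2, V254I passed (-1.21, edgeR adjusted p = 0.0261).

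The guide passed against WT in no NDD allele in IP. Against the WT IP, miR-80-3p changed by -0.91 ± 0.39 in F180del (edgeR adjusted p = 0.105), -0.61 ± 0.39 in G199S (adjusted p = 0.312), -0.55 ± 0.39 in V254I (adjusted p = 0.993) and 0.43 ± 0.39 in H751L (adjusted p = 0.640). None passed (no miRNA, 0.00%, was called in V254I and 2.23% in H751L), and the WT IP libraries are among those that led to the choice of mir-80. F180del passed with RLE factors, with no filter and with F180del and WT alone in the fit (-1.07, -0.84 and -1.03, edgeR adjusted p = 0.0464, 0.0440 and 0.0222). In the null IP miR-80-3p rose by 1.13 ± 0.40 (edgeR adjusted p = 0.0426), where the call was lost without null library 2 (0.54, adjusted p = 0.193) and without WT library 1 (0.80, adjusted p = 0.216). It was 2.04 without null library 1. With only null and WT in the fit it was 1.27 (adjusted p = 0.170).

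Against the null IP, miR-80-3p was lower by edgeR in F180del (-2.04 ± 0.41, adjusted p = 0.00227), G199S (-1.74 ± 0.40, adjusted p = 0.00640) and V254I (-1.68 ± 0.40, adjusted p = 0.00717). Lower miRNAs made up 13.4%, 10.0% and 18.6% of those tested in these comparisons. H751L did not pass (-0.70 ± 0.39, adjusted p = 0.179), but did without null library 1 (-1.54, adjusted p = 0.00587). The size rested on the null libraries: without null library 1 the changes were -2.70, -2.62 and -2.52 in F180del, G199S and V254I, and without null library 2 they were -1.39, -1.13 and -1.07. The G199S call was lost without G199S library 2 (-1.46, adjusted p = 0.0536) and the V254I call without V254I library 1 (-1.79, adjusted p = 0.0980). In a fit of the 2 groups alone both were lost as well (-2.11 and -1.63, adjusted p = 0.0715 and 0.0798). With library totals the changes were -1.06, -1.13 and -1.19 in F180del, G199S and V254I, and all passed. Over all 6 genotypes the IP levels of both arms differed (edgeR adjusted p = 0.00575 for miR-80-3p and 4.89e-05 for miR-80-5p), as did 61.3% of miRNAs.

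**Figure D2:**
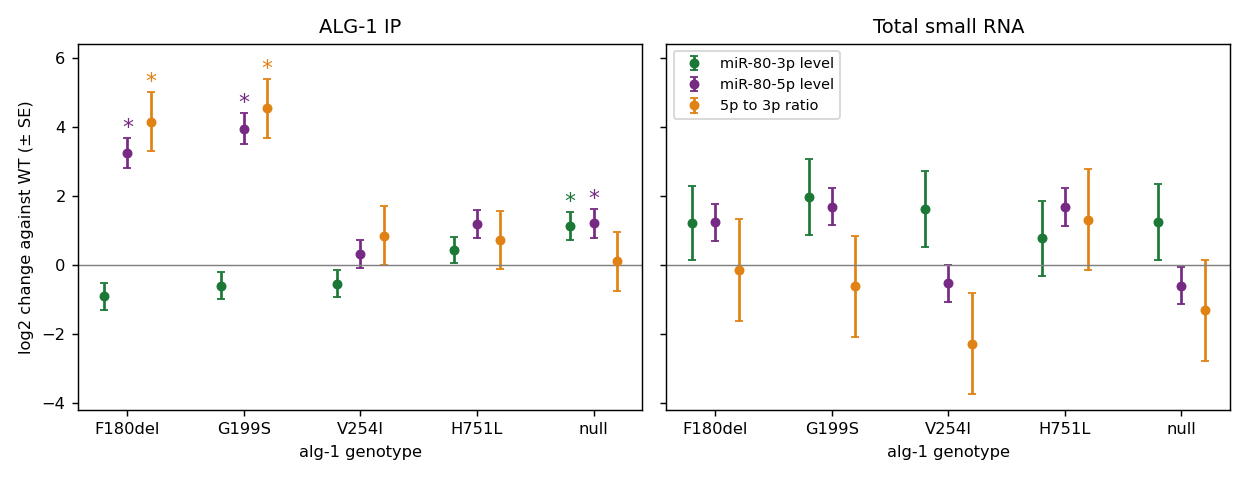
Log2 change against WT, with its SE, of the miR-80-3p level, the miR-80-5p level and the 5p to 3p ratio in IP and in total RNA, for the 5 mutant genotypes (n = 2 libraries per group); stars mark adjusted p under 0.05. In IP the passenger level and the ratio pass in F180del and G199S and both arm levels pass in null, and in total RNA no value passes.

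The passenger also rose relative to its guide in the IP of F180del and G199S. miR-80-5p reads were 3.66% and 2.68% of miR-80-3p reads in the F180del IP and 2.91% and 5.85% in the G199S IP. They were 0.381% and 0.268% in the V254I IP, 0.5% and 0.171% in the H751L IP, 0.351% and 0.102% in the null IP, and 0.285% and 0.11% in the WT IP. Both F180del and both G199S libraries thus lay above all others. The mean ratio was 16.1 times that of WT in F180del and 22.2 times in G199S. On the log2 scale the ratio rose by 4.15 ± 0.85 in F180del (limma adjusted p = 0.00448) and by 4.54 ± 0.85 in G199S (limma adjusted p = 0.00369). Of 83 hairpins tested, 45.8% rose in F180del, with a median over all hairpins of 2.26, and 36.1% rose in G199S, with a median of 1.66. V254I, H751L and null did not pass by limma (adjusted p = 0.982, 0.795 and 0.929), with 0.00%, 1.2% and 20.5% of hairpins called.

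In total RNA no genotype passed in the arm ratio. It was 36.0% and 7.57% in F180del, 9.41% and 15% in G199S, 2.08% and 6.79% in V254I, and 2.37% and 22.7% in null. In WT it was 43.0% and 7.76%. In H751L it was 17.4% in library 1 and 118% in library 2, where the passenger outnumbered its guide with 27515 reads against 23271. The log2 changes against WT ran from -2.28 ± 1.47 in V254I to 1.31 ± 1.47 in H751L, with limma adjusted p of 0.585 to 0.953. Of 99 hairpins, 12.1% were called in F180del, 13.1% in G199S, 0.00% in V254I, 5.05% in H751L and 13.1% in null.

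**Figure D3:**
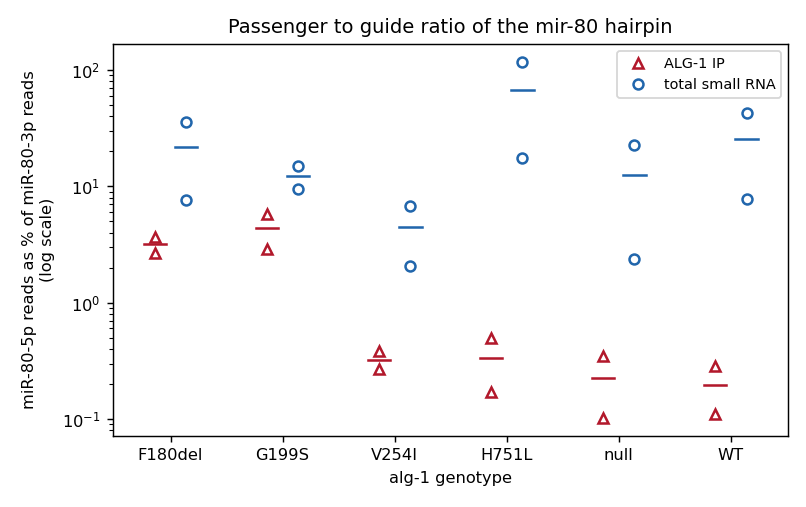
Reads of miR-80-5p as a percentage of miR-80-3p reads (log scale) in every library, by alg-1 genotype; triangles are ALG-1 IP libraries, circles total libraries, and bars the means of 2 libraries. The F180del and G199S IP libraries (2.68% to 5.85%) lie above all other IP libraries (0.102% to 0.5%), and total libraries spread from 2.08% to 118%.

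The IP to total comparison asked which arm was recovered with ALG-1. In every genotype both IP libraries held more miR-80-3p than both total libraries. The ratio of the IP mean to the total mean was 2.99 in F180del, 2.23 in G199S, 3.06 in V254I, 9.98 in H751L, 8.71 in null and 12.8 in WT. By edgeR on all 24 libraries (315 miRNAs), miR-80-3p was higher in IP than in total RNA by 4.33 ± 1.10 in H751L (adjusted p = 0.00548, with 15.2% of miRNAs higher) and by 4.26 ± 1.09 in null (adjusted p = 0.00502, with 13.0% higher). The null, which has no ALG-1 to precipitate, thus passed beside H751L. F180del (1.2 ± 0.97, adjusted p = 0.471), G199S (1.39 ± 0.97, adjusted p = 0.399) and V254I (1.96 ± 0.99, adjusted p = 0.195) did not pass, where 8.89% of miRNAs in F180del and 7.94% in G199S were called. With no filter on low counts these 3 passed (1.95, 1.69 and 2.13). The H751L and null calls rested on the lower total library: without library 2 of H751L total it was 3.35 (adjusted p = 0.0592), and without library 2 of null total 3.40 (adjusted p = 0.05, just above the threshold). Without the other total library, the values were 6.57 and 6.71. With only the null libraries in the fit the null call was lost (3.94, adjusted p = 0.101). In the WT libraries that led to the choice of mir-80, the same log2 difference was 4.18, given with no test.

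The IP reads were used without subtracting a background, and the labels give no precipitation yields. The IP to total ratio of miR-80-3p in the NDD alleles was therefore set against that of null. The log2 difference was -3.05 ± 1.38 in F180del (edgeR adjusted p = 0.160), -2.87 ± 1.38 in G199S (adjusted p = 0.218), -2.29 ± 1.37 in V254I (adjusted p = 0.364) and 0.08 ± 1.35 in H751L (adjusted p = 1.00). None passed by edgeR, which called 8.57% of miRNAs in F180del, 7.30% in G199S, 2.86% in V254I and 0.317% in H751L, so no allele was shown to recover a larger or smaller share of miR-80-3p than the null did. With library totals the differences were -1.54 in F180del, -1.96 in G199S and -1.51 in V254I, and that scaling moves the median of all miRNAs by 1.31, 0.53 and 0.71. With no filter on low counts F180del and G199S passed (-2.40 and -2.65, adjusted p = 0.0266 and 0.0139). Without null total library 1 they also passed (-5.51 and -5.33, adjusted p = 0.0222 and 0.0291).

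The passenger ran the other way. Its IP mean was 0.696 times its total mean in F180del, 0.778 times in G199S, 0.315 times in V254I, 0.105 times in H751L, 0.422 times in null and 0.152 times in WT. miR-80-5p was lower in IP than in total RNA in H751L (-2.18 ± 0.43, edgeR adjusted p = 0.000886, with 15.6% of miRNAs lower) and in V254I (-1.41 ± 0.42, adjusted p = 0.0318, with 9.84% lower). The V254I call was lost without any 1 of its 4 libraries (-1.25 to -0.93). F180del (-0.86 ± 0.42, adjusted p = 0.228), G199S (-0.10 ± 0.41, adjusted p = 0.899) and null (-0.35 ± 0.41, adjusted p = 0.514) did not pass. The median over all miRNAs was also below 0, at -0.45 in H751L, -0.39 in V254I, -0.47 in F180del, -0.27 in G199S and -0.88 in null. In G199S and null miR-80-5p thus lay above the median. With library totals null passed (-1.24, edgeR adjusted p = 0.0376), a scaling that moves the median of all miRNAs there by -1.15. H751L thus held 2626 RPM of miR-80-5p in total RNA and 275 RPM in IP on average, the lowest ratio of means among the 6 genotypes. Its IP to total ratio for miR-80-5p differed from that of null by -1.83 ± 0.59, which missed the threshold by edgeR (adjusted p = 0.0960) and passed with DESeq2 (-2.39, DESeq2 adjusted p = 0.00766). In WT the log2 difference was -2.16, given with no test and close to the -2.18 of H751L.

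Among the bantam family the table lists 8 guides of the 3p arm. miR-58a-3p, miR-81-3p and miR-82-3p are abundant, while miR-58b-3p and the 3 miR-2209 guides had 13 to 546 reads over all 24 libraries. In total RNA the family took 21.5% to 33.7% of all reads, with miR-58a-3p in the lead at 97975 to 277517 RPM, and miR-80-3p made up 0.673% (H751L library 2) to 15.4% (G199S library 1) of the family. In IP miR-80-3p made up 25.8% and 29.5% of the family in F180del, 36.7% and 22.4% in G199S, and 29.4% and 33.0% in V254I. It made up 35.2% and 46.7% in H751L, 69.7% and 66.0% in null, and 35.1% and 39.7% in WT. Both null libraries lay above all others, yet the family as a whole took 15.7% and 26.3% of reads in the null IP and 18.1% and 23.7% in the WT IP.

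None of the tested relatives rose in the null IP. miR-58a-3p had 7547 and 31275 RPM in the null IP, against 26012 and 43555 RPM in the WT IP, and did not pass (-0.49 ± 0.68, edgeR adjusted p = 0.566). miR-81-3p had 23599 and 35593 RPM in the null IP, against 63429 and 70961 RPM in the WT IP, and fell (-0.89 ± 0.30, adjusted p = 0.0382, where 24.2% of miRNAs fell). miR-82-3p did not pass there (-0.25 ± 0.28, adjusted p = 0.485). Of 5 other family members tested in IP, 0 rose and 1 fell in null, 0 rose and 1 fell in F180del (miR-81-3p, -1.09 ± 0.31, adjusted p = 0.0192, with 8.55% of miRNAs lower), and 1 rose and 1 fell in G199S. Those were miR-82-3p (0.89 ± 0.28, adjusted p = 0.0401) and miR-81-3p (-0.93 ± 0.30, adjusted p = 0.0430, with 4.83% lower). In V254I and H751L IP and in all total comparisons none of the other members tested passed against WT by edgeR. The 5 tested in IP include miR-2209a-3p and miR-2209c-3p, with 546 and 71 reads over all 24 libraries. Their changes in the null IP were 1.92 ± 1.39 and -5.35 ± 2.79, so the lack of a call says little for them. The median change of the 5 other members in the null IP was -0.49, against -0.77 over all miRNAs.

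Within the null, IP against total RNA, miR-58a-3p fell (-2.38 ± 0.69, edgeR adjusted p = 0.0107, with 22.5% of miRNAs lower) where miR-80-3p rose. In H751L, miR-81-3p and miR-82-3p rose beside miR-80-3p (1.64 ± 0.50 and 1.18 ± 0.42, adjusted p = 0.0160 and 0.0370). The spread between total libraries was smaller in the relatives, with SDs of 0.407 for miR-58a-3p, 0.463 for miR-81-3p and 0.268 for miR-82-3p on the log2 scale, against 1.61 for miR-80-3p.

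**Figure D4:**
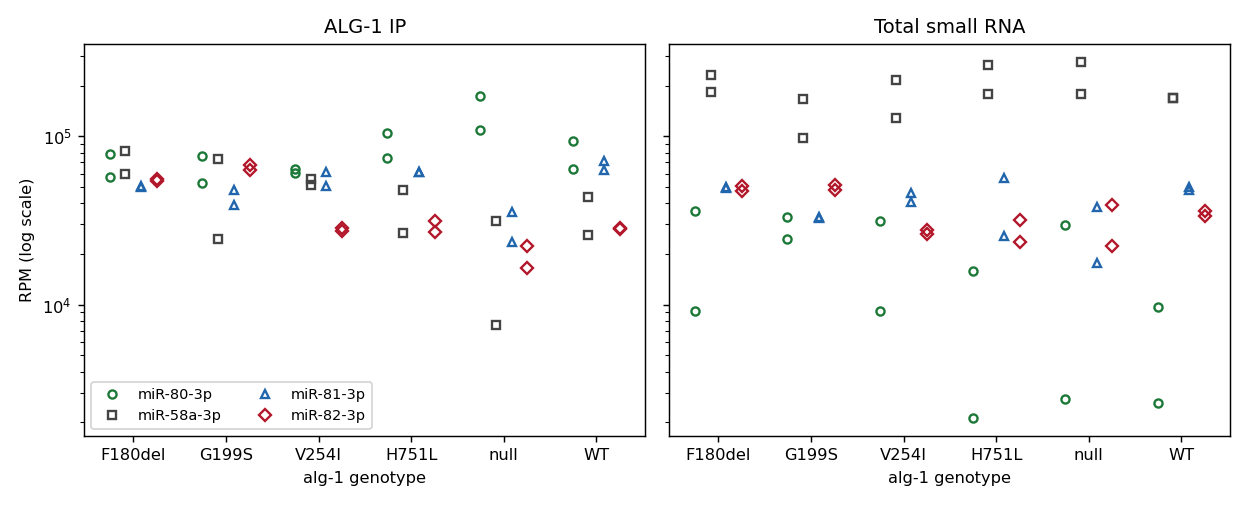
RPM (log scale) of the 4 abundant bantam family guides in every IP and total library, by alg-1 genotype, with a point for each library. miR-80-3p is the most abundant family guide in both IP libraries of H751L, null and WT, and in total RNA it lies below miR-58a-3p in every library.

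Both miRNA genes near mir-80 on chromosome III were measured. miR-238-3p had 5393 ± 4096 RPM in H751L total RNA, 4867 ± 3849 RPM in null and 4602 ± 275 RPM in WT (SD, n = 2 each). Its libraries 2 of H751L and null were the low ones, 2497 and 2145 RPM, as they were for miR-80-3p. In both genotypes, 4 of the 5 larval timing markers were also lower in library 2. In G199S, V254I and WT, miR-238-3p was higher in the miR-80-3p-rich library. In F180del it went the other way, with 6405 RPM in library 1 and 5116 RPM in library 2, against 9161 and 36112 RPM of miR-80-3p. miR-238-3p was higher in IP than in total RNA in H751L (1.84 ± 0.58, edgeR adjusted p = 0.0189) and null (1.56 ± 0.57, adjusted p = 0.0387), the same genotypes as for miR-80-3p. Of all miRNAs tested, 15.2% were higher in IP in H751L and 13.0% in null. miR-90-3p, whose gene overlaps K01F9.2, was higher in IP in all 5 mutant genotypes (1.46 ± 0.38 in F180del to 3.36 ± 0.41 in H751L). In F180del 8.89% and in G199S 7.94% of miRNAs were called in either direction there. Against WT, miR-90-3p fell by edgeR in F180del in total RNA (-1.99 ± 0.55, adjusted p = 0.0281), where 15.5% of miRNAs were called in either direction. It also fell in IP in F180del and G199S (-1.77 ± 0.26 and -1.02 ± 0.26, edgeR adjusted p = 0.000496 and 0.0143), where 8.55% and 4.83% of miRNAs fell. miR-90-5p, its passenger, rose in IP in F180del, G199S and null (3.94 ± 0.74, 3.50 ± 0.72 and 5.18 ± 0.78, edgeR adjusted p = 0.00232, 0.00473 and 0.00117). In these comparisons 23.8%, 20.4% and 17.1% of miRNAs rose. miR-80-5p passed in IP in the same genotypes, though its null call was lost in several alternatives.

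By Pearson correlation of the 12 group means of log2(RPM + 1), the 5 of 175 miRNAs with the pattern most like that of miR-80-3p were miR-54-3p (r = 0.957), miR-73-3p (0.955), miR-84-5p (0.947), miR-795-5p (0.946) and miR-1820-5p (0.943). The 12 points share libraries and library totals and come from both fractions. All 5 had more RPM in IP on the ratio of means to total RNA in V254I, H751L, null and WT, by 6.87 (miR-54-3p) to 31.7 (miR-795-5p) times in WT. In F180del and G199S, miR-1820-5p was below 1 (0.757 and 0.793), while miR-80-3p was at 2.99 and 2.23. Only 1 of the 5 stayed among the nearest 5 in the 6 total means alone (miR-54-3p) and only 1 in the 6 IP means alone (miR-84-5p, r = 0.960). In the IP means let-7-5p (0.865) and miR-241-5p (0.957), both timing miRNAs, came among the nearest, and 4 of 5 timing miRNAs rose and 1 fell in the null IP against WT, where 17.1% of all miRNAs rose and 24.2% fell. Their part in the miR-80-3p level was not tested.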

How the data were processed

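Small RNA libraries were sequenced on a NextSeq500 after size selection, per the labels' protocols. The authors deposited raw counts, in whole reads, for each mature miRNA with its precursor. Per the submitters' processing notes, tools included Bowtie 1.2.2, cutadapt, FastQC 0.11.8 and DESeq2, with no steps assigned to them. The deposited RPM sheet equalled the counts divided by library totals within 1 RPM in 100.0% of cells. Another 48 per-sample columns, which match no label, stayed unused. Of 450 rows, 13 repeats of a mature name were dropped, keeping the row with most reads.

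The test on counts was that of edgeR 4.0.16 under R 4.3.3, with filterByExpr, TMM scaling and quasi-likelihood F-tests, in 1 fit of 12 total, 1 of 12 IP and 1 of all 24 libraries, with Benjamini-Hochberg adjustment over all miRNAs tested and a threshold of 0.05. The SE is the log2 change divided by the square root of F. Ratios of arms (99 hairpins in total RNA, 83 in IP, mean passenger count of at least 10; guide is the arm with more total reads) used limma 3.58.1 with 0.5 added to counts. Steps were tested on simulated data. Named were both arms, the bantam family by name, miRNAs within 10 kb and the 5 most alike. The members and lists were chosen with earlier results of these data known. A two-sided exact permutation test of 2 against 2 libraries cannot go below 0.333. Alternatives were other scaling, filters, tools and left-out libraries. The library depth limits RPM at 0 reads to 0.217 to 0.761 RPM (3 reads).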

Additional observations from a re-analysis of the deposited data

Results flagged for a closer look

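A total of 5 results showed opposite signs in the 2 fractions, and these differences between fractions were not tested, because each contains the WT comparison that led to the choice of mir-80. For miR-80-3p both total libraries lay above the WT total mean and both IP libraries below the WT IP mean in F180del, G199S and V254I, with log2 IP to total ratios that differed from WT by -2.98, -2.80 and -2.22. For miR-80-5p both total libraries lay below the WT total mean and both IP libraries above the WT IP mean in V254I and null, with ratios that differed from WT by 0.74 and 1.81.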

How the results depend on the processing

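Over 73 results and 877 alternative values, 450 of the alternatives other than leaving out a library kept direction and side of the threshold, 9 lost a call, 18 gained one, 5 changed sign and 3 moved. Of those that left out a library, 352 kept both, 12 lost a call, 5 gained one, 21 changed sign and 2 moved. The causes were not tested. The main fits did not pair libraries by number, and the labels state no block. For each genotype, the log2 difference between library 2 and library 1 was taken for 175 miRNAs. Between genotypes these differences correlated at -0.543 to 0.852 in total RNA, above 0.1 in 8 of 15 pairs. In IP they correlated at -0.178 to 0.565, above 0.1 in 10 of 15 pairs. Between the fractions of a genotype they correlated at -0.0475 (H751L) to 0.406 (G199S). Some variation between libraries was thus shared between genotypes, but its direction did not follow library number in every pair. In total RNA, miR-80-3p was higher in library 1 in G199S, V254I, H751L and null, and in library 2 in F180del and WT. The replicate block changed 1 call, that of miR-80-5p in G199S total RNA against WT (1.72, adjusted p = 0.0352).

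Without the filter on low counts, miR-80-3p passed in G199S total RNA (2.01) and F180del IP (-0.84) against WT, in IP against total RNA in F180del (1.95), G199S (1.69) and V254I (2.13), and in the IP to total ratio against null in F180del (-2.40) and G199S (-2.65). miR-80-5p changed sign there in G199S IP against total RNA (0.19) and in the F180del ratio against null (0.12), which was 0.72 with library totals. RLE factors gave -1.07 for miR-80-3p in F180del IP against WT, a call, and -0.27 for its H751L ratio against null, as did DESeq2 (-0.27). With only the compared groups in the model, miR-80-3p was called in F180del IP (-1.03) and in IP against total RNA in G199S (1.45) and V254I (1.97), and lost in null IP against WT (1.27), in G199S (-2.11) and V254I (-1.63) IP against null, and in null IP against total RNA (3.94).

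Leaving out each library gave these ranges. For miR-80-3p they were -1.83 to 1.98 (H751L total RNA against WT), -1.36 to 2.41 (null total RNA against WT), 0.54 to 2.04 (null IP against WT), and, against null IP, -2.62 to -1.13 (G199S), -2.52 to -1.07 (V254I) and -1.54 to -0.09 (H751L). In IP against total RNA they were 3.35 to 6.57 (H751L), 3.03 to 6.71 (null) and 3.44 to 5.74 (WT). For the ratio against null they were -5.51 to -1.16 (F180del), -5.33 to -1.66 (G199S) and -2.37 to 2.66 (H751L), and against WT -4.36 to -2.06 (G199S). For miR-80-5p they were -0.48 to 0.36 (H751L IP against null), -0.40 to 0.03 (G199S IP against total RNA) and -0.54 to 0.53 (F180del ratio against null). For the arm ratio against WT they were, in total RNA, -1.38 to 1.09 (F180del), -1.85 to 0.62 (G199S), -0.07 to 2.69 (H751L) and -2.95 to 0.31 (null), and in IP -0.05 to 1.5 (H751L) and -0.79 to 0.99 (null). The lowest count of either arm in any library was 830 reads.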
